A study of Mus musculus with 4 samples.

Results

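Among the p63 peaks of mouse salivary gland progenitor cells, 471 of 4130 (11.4%, Wilson 95% interval 10.5 to 12.4%) lay in the gap between 2 H3K27ac peaks. A p63 peak was counted in this set when it shared no base with any H3K27ac peak and had the edge of one less than 1000 bases away both to the left and to the right. The set was thus chosen from the positions of the peaks of both lists, so its size, the distances to the flanks and the absence of H3K27ac at the p63 peak are given as a description and support nothing. The p63 and H3K27ac peaks came from chromatin immunoprecipitation and sequencing (ChIP-seq) of primary mouse epithelial progenitor cells. The cells came from salivary glands taken at an adult age of 12 weeks. The p63 library and its input are titled PSECS_4A4 and the H3K27ac library and its input pSG_H3K27Ac. Whether both marks were taken from the same preparation of cells is not known here. p63 was precipitated with the monoclonal antibody 4A4 and acetylated histone H3 with an antibody to H3K27ac, in 1 library each, and each was set against its own input library without antibody. All 4 libraries carry the same genotype, p63 wild type, so there is no treated or mutant group, and neither the number of animals nor the culture of the cells is stated. The list of 183757 H3K27ac peaks and the list of p63 peaks hold positions on mm9 and no score, so sequencing depth is not known.

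p63 is a transcription factor of the p53 family that keeps basal cells of stratified and glandular epithelia in a progenitor state, and 4A4 binds its longer and shorter isoforms alike. H3K27ac is the acetylation of a lysine in the tail of histone H3, written by CBP and a related acetyltransferase at active enhancers and promoters. The mark sits on nucleosomes, and a bound factor often occupies DNA from which nucleosomes are displaced, so that the mark of an active regulatory element commonly forms a shoulder on either side of the factor. The label of the cells could not be checked against marker genes, because no gene annotation or genome of mm9 was used here. For the same reason the peaks are given by position, without genes or sequences.

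The flanked p63 peaks ran from 120 to 446 bases in width, with a median of 183 bases (quartiles 146 and 221). The gap around them, counted as the bases between the left and the right H3K27ac peak, had a median of 566 bases (quartiles 386 and 825.5; lowest 147, highest 2018). Gap lengths were spread out: 47 peaks lay in gaps of 120 to under 300 bases, 155 in gaps of 300 to under 500, 185 in gaps of 500 to under 1000, 83 in gaps of 1000 to under 2000 and 1 in a longer gap. The p63 peak took up a median of 34.9% of its gap (quartiles 21.5 and 48.7%), and 109 of 471 peaks (23.1%) filled at least 50% of it. From the outer edge of one flank to the outer edge of the other, the whole arrangement spanned a median of 1282 bases (quartiles 1038.5 and 1607.5). The map of flanks around each p63 peak shows all of them at one scale.

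**Figure D1:**
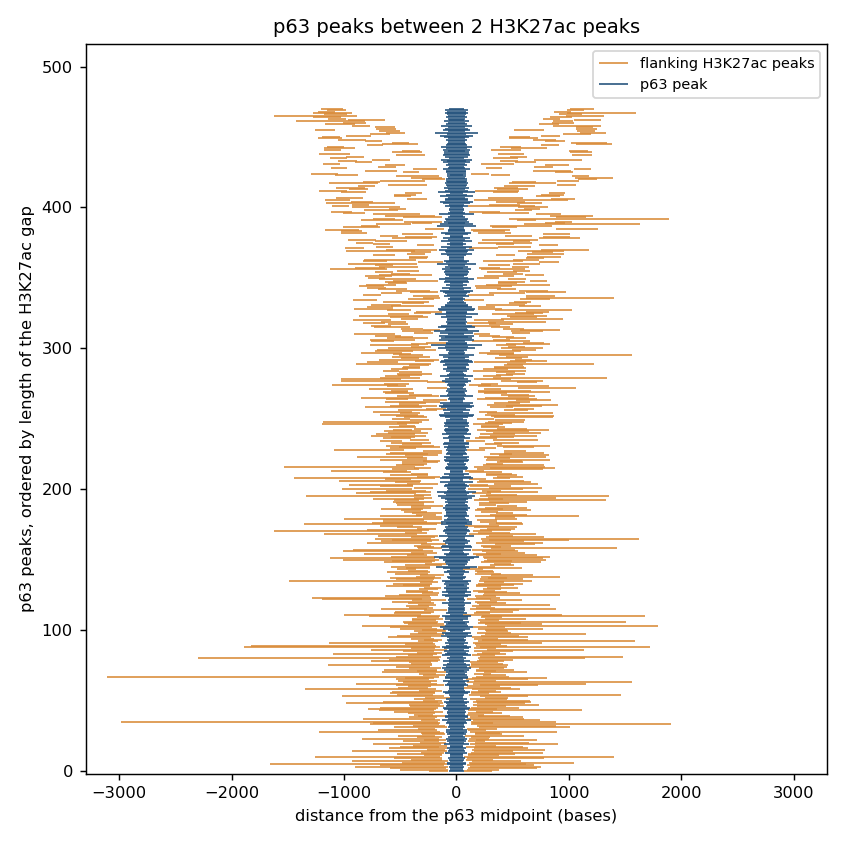
Each row is 1 of the 471 flanked p63 peaks (blue), centred on its midpoint, with its left and right H3K27ac peaks (orange). Rows are ordered from the shortest gap (147 bases, bottom) to the longest (2018 bases, top), and the horizontal axis gives the distance from the p63 midpoint in bases. The orange bars are longest beside the short gaps in the lower part.

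Within the gap, the nearer H3K27ac edge was a median of 85 bases away (quartiles 35 and 161) and the farther edge 257 bases (quartiles 140 and 488). For 157 peaks (33.3%) the nearer edge was under 50 bases away, for 381 (80.9%) under 200 bases. Both edges were under 200 bases away for 189 peaks (40.1%). The nearer distance made up a median of 26.8% of the free bases on both sides (95% interval from ranks 24.3 to 29.0%). An exactly centred peak would give 50%. The rule bounds both distances, so this value is a description and was not set against placement by chance. The midpoint lay between 25 and 75% of the way across the gap for 382 peaks (81.1%, Wilson 95% interval 77.3 to 84.4%). This share depends on how much of the gap the peak fills: it was 47 of 47 in gaps under 300 bases, 141 of 155 in gaps of 300 to under 500, 135 of 185 in gaps of 500 to under 1000 and 58 of 83 (69.9%, interval 59.3 to 78.7%) in gaps of 1000 to under 2000 bases. The left flank was the nearer one for 236 peaks, the right for 233, and the distances were equal for 2.

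The members nearest to the limits of the rule show what it separates. Nearest to H3K27ac, chr4:95598084-95598284, chr4:155164752-155165143 and chr5:31867338-31867501 abutted their left flank with 0 bases between the peaks; they are the first in genome order of 7 members that abutted a flank. On the other side of that limit, chr3:51142189-51142337, chr4:139151261-139151380 and chr5:31548679-31548798 shared 1 base with an H3K27ac peak and were therefore counted as overlapping, as were 8 p63 peaks in all that shared 1 base. Just inside the distance limit were chr13:38441873-38442024 with its farther flank 994 bases away, chr3:103216197-103216368 at 993 and chr15:60496781-60496926 at 986 bases. Just outside it, counted as flanked on 1 side, were chr1:133586594-133586750 with the farther flank at 1001 bases, chr5:123814272-123814472 at 1015 and chr5:17540722-17540907 at 1027 bases. Among the 1439 overlapping p63 peaks, the median number of bases shared with H3K27ac was 116 (quartiles 58 and 164), and 115 peaks (7.99%) shared under 20 bases. Of the 1439, 664 (46.1%) had their midpoint outside H3K27ac, and 456 of these would be flanked on both sides if only the midpoint counted. With H3K27ac peaks of 300 bases or more alone, 158 p63 peaks were flanked on both sides, of which 134 belong to the 471.

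The gaps with the shortest length held narrow p63 peaks that almost touched both flanks. The peak chr12:8923261-8923386 (126 bases) lay in a gap of 147 bases, 13 bases from an H3K27ac peak of 166 bases and 8 bases from one of 242 bases. At chr17:12536329-12536448 the gap was 168 bases, at chr2:30567660-30567779 it was 189, at chr8:90804853-90804992 it was 192 and at chr10:107975776-107975895 it was 198 bases. The flanks of the last 3 of these were wide, at 503 and 618 bases, 834 and 628 bases, and 570 and 603 bases. At the other extreme, chr7:133148179-133148313 lay in the longest gap, 2018 bases, almost at its centre with 938 and 945 bases free on its sides and flanks of 199 and 213 bases. The peak chr1:131454327-131454525 lay at the exact centre of a gap of 1961 bases, 881 bases from each flank, and the flanks were 175 and 150 bases wide. The other 3 longest gaps were those of chr3:103216197-103216368 (1945 bases), chr1:121203926-121204125 (1913 bases) and chr10:92649204-92649372 (1881 bases). Of the 5 longest gaps, that at chr1:121203926-121204125 stood apart by its wider flanks, 347 and 609 bases.

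The width of the flanks was not part of the rule. The 942 flanking positions were filled by 941 different H3K27ac peaks, and their median was 259 bases (quartiles 183 and 405). All H3K27ac peaks of the list had a median of 191 bases (quartiles 155 and 260). A width of 150 bases, the smallest in the list, was found for 71 of 942 flanks (7.54%, Wilson 95% interval 6.02 to 9.40%) and for 39798 of all H3K27ac peaks (21.7%). A width of 500 bases or more was found for 169 of 942 flanks (17.9%, interval 15.6 to 20.5%) and for 7.42% of all H3K27ac peaks, and both flanks reached it at 25 sites (5.31%). For the wider flank alone it was 30.6% of the sites in gaps under 2000 bases, and 24.0% of the gaps of 120 to under 2000 bases that no p63 peak met, with gap lengths not matched. Both flanks exceeded the list median of 191 bases for 258 p63 peaks (54.8%), and neither did for 45 (9.55%). These 2 counts were not made for gaps without p63. Both flanks were wider than 150 bases at 85.7% of the 470 sites in gaps under 2000 bases and at 73.9% of the 51068 gaps met by no p63 peak. Both reached 500 bases at 25 of these 470 sites and at 1982 of all 52252 gaps of 120 to under 2000 bases. These intervals cover counting error only, take peaks as independent, and were not followed by a test, since each list rests on 1 library.

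The 2 shoulders of a site were often unequal. The narrower flank had a median of 200 bases (quartiles 164 and 274) and the wider 351 bases (quartiles 245.5 and 546), and for 146 sites (31.0%) the wider was at least 2 times the narrower. In gaps of 120 to under 2000 bases met by no p63 peak the medians were 177 and 287 bases, with gap lengths not matched. The share with a flank 2 times the other was not counted there, so the inequality is not shown to be particular to p63 sites. The larger shoulder was on the left for 225 sites, on the right for 242 and equal for 4. It was the shoulder nearer to p63 in 240 of 469 sites with unequal distances (51.2%, Wilson 95% interval 46.7 to 55.7%). Across the 471 sites the widths of the left and right flanks had a Spearman rho of 0.22, and gap length had one of -0.37 with the narrower and -0.39 with the wider flank. Sites share 1 library of each kind, so these coefficients are descriptions.

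Since flank width fell with gap length, the flanks were also set beside those of gaps of the same length class that no p63 peak met. In each of the 4 length classes the medians were higher with p63, by a margin that narrowed as the gap grew longer. For gaps of 120 to under 300 bases the wider flank had a median of 545 bases (95% interval of the median, from ranks, 478 to 647; n = 47) with p63 and 404 (397 to 411; n = 14197) without. For gaps of 300 to under 500 bases it was 398 (374 to 504; n = 155) and 326 (320 to 332; n = 8771). For gaps of 500 to under 1000 bases it was 337 (309 to 361; n = 185) and 267 (264 to 269; n = 12509). For gaps of 1000 to under 2000 bases it was 258 (226 to 281; n = 83) and 239 (237 to 241; n = 15591), where the intervals overlap. The narrower flank gave 252 against 206, 223 against 186, 184 against 172 and 171 against 162 bases in the same order of gap length. For the narrower flank the intervals were apart in gaps of 300 to under 500 bases (209 to 255 with p63, 185 to 188 without) and met or overlapped in the other 3 classes. Gap lengths were not matched within a class. In the shortest class the gaps with p63 were longer than those without, with medians of 264 and 194 bases. From 300 to under 500 bases the medians were 400 and 387. Gaps with p63 were shorter from 500 to under 1000 bases (678 against 717) and from 1000 to under 2000 bases (1229 against 1460). Since shorter gaps had wider flanks, this bears on the flank medians of those classes, and its share in them was not tested. Both flanks reached 300 bases in 44.7, 31.6, 13.0 and 7.23% of gaps with p63 and in 25.8, 16.8, 8.20 and 3.75% of those without, from the shortest class to the longest, with overlapping intervals in the longest class. For the widest flanks the order was not the same in all classes. A flank of 1000 bases or more stood beside 12.8, 13.5, 2.16 and 2.41% of gaps with p63 and beside 12.6, 8.45, 4.50 and 2.85% of those without, with intervals that overlap in each class.

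**Figure D2:**
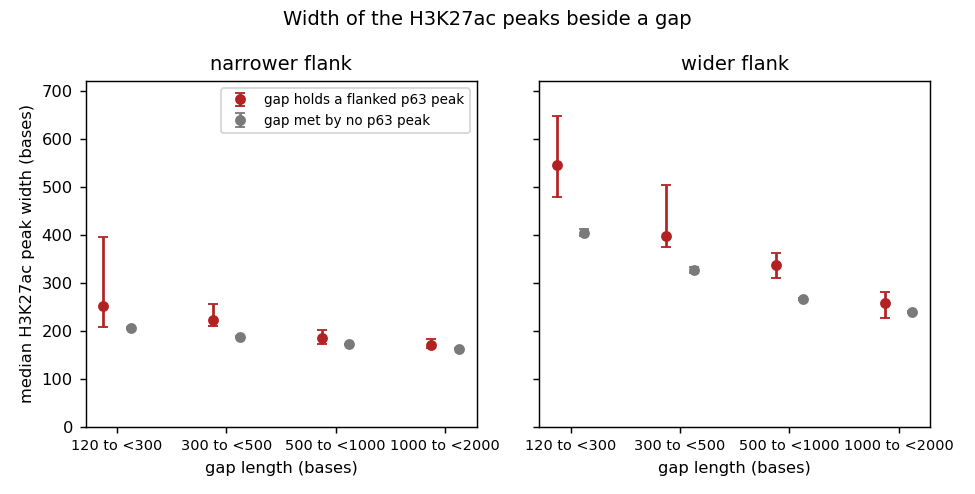
Points give the median width in bases of the narrower (left panel) and wider (right panel) H3K27ac peak beside a gap, by gap length, and bars the 95% interval of the median from ranks. Red marks gaps that hold a flanked p63 peak (n = 47, 155, 185 and 83) and grey those met by no p63 peak. The red medians lie above the grey in each class. Intervals overlap or meet for the longest gaps and, for the narrower flank, also from 120 to under 300 and from 500 to under 1000 bases.

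Seen from the gaps, few held p63, and the share was lowest where the narrower flank was under 200 bases in the gap lengths that held most sites. The H3K27ac list had 52252 gaps of 120 to under 2000 bases between neighbouring peaks, and 470 of them, or 0.899%, held a flanked p63 peak. A further 714 were met only by p63 peaks of other classes. By length the share was 0.322% of gaps of 120 to under 300 bases (exact 95% interval 0.237 to 0.428%), 1.71% from 300 to under 500 (1.45 to 2.0%), 1.45% from 500 to under 1000 (1.25 to 1.67%) and 0.525% from 1000 to under 2000 (0.418 to 0.650%). The rule itself lowers the first and last of these, since a p63 peak in a short gap easily meets a flank and one in a long gap may be 1000 bases or more from an edge. Within gaps of 300 to under 500 bases, 57 of 5154 held a flanked p63 peak where the narrower flank was under 200 bases (1.11%, interval 0.839 to 1.43%), 49 of 2338 where it was 200 to under 300 (2.1%, interval 1.55 to 2.76%) and 36 of 1113 where it was 300 to under 500 (3.23%, interval 2.28 to 4.45%). At 500 bases or more it was 13 of 453 (2.87%, interval 1.54 to 4.86%). Within gaps of 500 to under 1000 bases the same 4 shares were 1.19, 1.94, 2.33 and 1.80%. In gaps of 300 to under 500 bases the interval for the narrowest flanks lies below those of the other 3 classes, and in gaps of 500 to under 1000 bases it does so for 2 of 3. The trend was not tested, and the intervals treat gaps as independent.

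**Figure D3:**
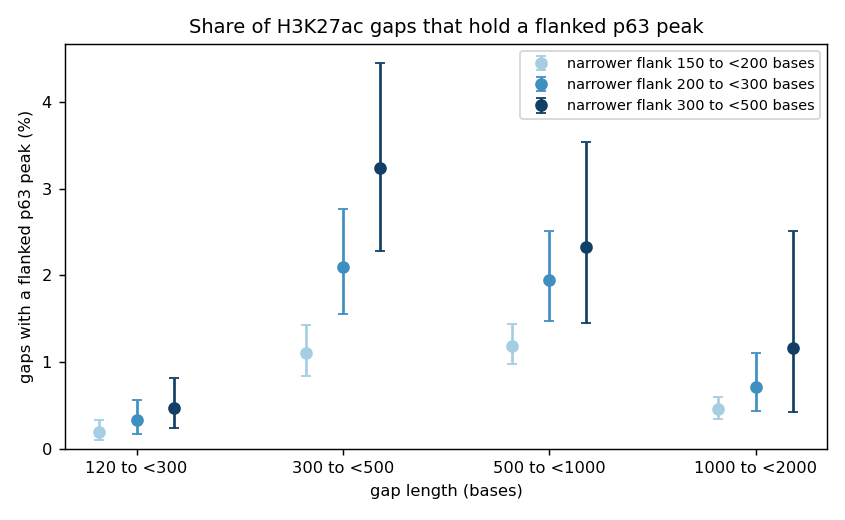
The vertical axis gives the percentage of gaps between neighbouring H3K27ac peaks that hold a flanked p63 peak, by gap length and by the width of the narrower flank, with exact binomial 95% intervals. In gaps of 300 to under 500 bases the 3 points run from 1.11% to 3.23%. Gaps with a narrower flank of 500 bases or more are left out of the plot because they are few.

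The p63 peaks with the widest shoulders stood in short gaps. At chr8:123062596-123062766 the flanks were 2822 and 756 bases wide and the gap 287 bases. The peak chr15:77629211-77629464 had flanks of 1748 and 1513 bases with a gap of 355 bases. From 1 to 10 kb of its midpoint 10735 bases were in H3K27ac peaks, the parts of these flanks past 1 kb included. At chr5:34871524-34871720 the left flank, 2951 bases, was the widest of all flanks and the right flank was 295 bases, with a gap of 335 bases. The peak chr6:47829464-47829639 had flanks of 2140 and 947 bases, and chr7:117431896-117432015 flanks of 1108 and 1336 bases. The wider flank reached 1000 bases or more at 33 sites and both flanks did at 3. Such a wide shoulder stood beside 7.02% of the 470 sites in gaps under 2000 bases (Wilson 95% interval 5.04 to 9.70%) and beside 6.91% of the 51068 gaps met by no p63 peak, whose share lies inside that interval.

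The flanks of the 10 widest p63 peaks ranged from 150 to 619 bases. The widest p63 peak, chr19:10271298-10271743 (446 bases), sat in a gap of 687 bases, 111 and 130 bases from flanks of 432 and 175 bases. Next came chr10:66750721-66751128 (408 bases), 19 bases from its left and 277 from its right flank. The peak chr4:155164752-155165143 (392 bases) filled 90.7% of its gap of 432 bases, and chr6:86130591-86130961 (371 bases) filled 87.5% of its gap of 424 bases. By contrast chr7:99852154-99852537 (384 bases) filled 24.7% of a gap of 1553 bases, and chr17:46403072-46403422 (351 bases) 35.1% of a gap of 1000 bases. The other 4 of the 10 widest were chr2:129149969-129150345 (377 bases), chr16:16866180-16866529 (350 bases), chr16:16912181-16912520 (340 bases) and chr10:61783473-61783808 (336 bases). The 2 on chromosome 16 were each other's nearest p63 peak, 45651 bases apart. Across all 471 sites, p63 width and the summed width of the flanks had a Spearman rho of 0.06.

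In p63 width the flanked peaks had a lower median than the overlapping ones and a higher one than the 3 other classes. Their median of 183 bases (95% interval from ranks 176 to 191) compares with 198 (195 to 202; n = 1439) for overlapping peaks, 176 (171 to 181; n = 914) for peaks flanked on 1 side, 168 (163 to 171; n = 981) for peaks 1 to 10 kb away and 171 (163 to 179; n = 325) for peaks more than 10 kb away. The interval of the flanked peaks overlaps those of the peaks flanked on 1 side and of the peaks more than 10 kb away. A wide p63 peak meets H3K27ac more easily and so leaves the flanked set, which bears on the comparison with the overlapping class.

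Farther out, H3K27ac coverage around flanked p63 peaks lay between that of overlapping peaks and that of peaks flanked on 1 side. At 200 to 400 bases from the midpoint, H3K27ac peaks covered 53.7% of positions around flanked sites, 58.7% around overlapping ones and 19.3% around those flanked on 1 side. The rule requires a flank under 1000 bases on each side, so the values near the peak are set by it. At 2 to 5 kb the shares were 10.2, 13.8 and 4.98%, and at 5 to 10 kb they were 8.35, 10.1 and 4.52%, against 1.87% of the span between the first and last peak of all chromosomes. From 1 to 10 kb a flanked site had a median of 1260 bases in H3K27ac peaks (95% interval from ranks 1100 to 1442). Overlapping sites had 1445 (1317 to 1573), and sites flanked on 1 side had 590 (534 to 647). Part or all of a flank can lie past 1 kb of the midpoint and is then counted in these bases. At chr15:60496781-60496926 the 159 bases counted were those of its right flank, whose edge lay 986 bases from the p63 peak. These values are thus partly set by the rule.

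**Figure D4:**
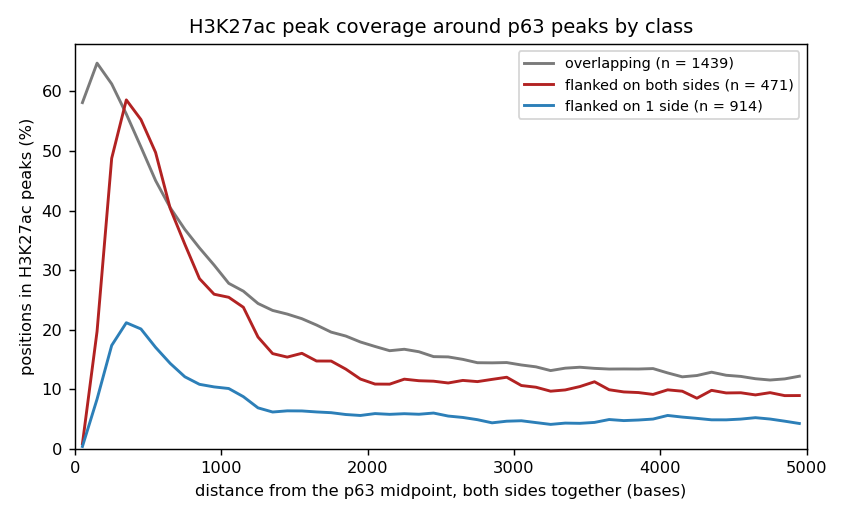
The vertical axis gives the percentage of positions in H3K27ac peaks, in bins of 100 bases by distance from the p63 midpoint with both sides together, for overlapping, flanked and 1-side flanked p63 peaks. Around flanked sites the curve starts near 0, as the rule sets it, reaches 58.6% in the bin from 300 to 400 bases and stays between the other classes beyond 1 kb.

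Rows of acetylated peaks around the sites were short in most cases. Counting onward from the 2 flanks through H3K27ac peaks less than 1000 bases apart, the 470 sites in gaps under 2000 bases had a median of 3 such peaks in a row, the flanks included. A row of 5 or more held 117 of them (24.9%, Wilson 95% interval 21.2 to 29.0%), and 24.3% of the 51068 gaps met by no p63 peak. There were 17 sites with no H3K27ac peak centred from 1 to 10 kb away, such as chr9:47511642-47511769, whose flanks of 265 and 228 bases lay around a gap of 356 bases. Another was chr15:20366088-20366314, in a gap of 592 bases, with its nearest other p63 peak 5188920 bases away. At the other end, 53 sites had 10 or more H3K27ac peaks in that range, and their wider flank had a median of 547 bases, against 323.5 bases for the 226 sites with 1 to 4. Their gaps were also shorter, with medians of 491 and 626 bases, and a flank centred past 1 kb counts among these peaks. No like split was made for gaps met by no p63 peak, and the part of gap length in this difference was not tested. The most acetylated surroundings were those of chr15:77661554-77661736, with 13741 bases in H3K27ac peaks from 1 to 10 kb, where the site itself had flanks of 238 and 586 bases.

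Flanked p63 peaks had a p63 neighbour at a share near that of all p63 peaks. Another p63 peak lay within 10 kb of 84 of the 471 (17.8%, Wilson 95% interval 14.6 to 21.5%), against 14.6% of all 4130 p63 peaks. The share was 21.9% (19.8 to 24.1%) for overlapping peaks and 11.8% (9.88 to 14.1%) for those flanked on 1 side. The interval of the flanked peaks meets that of the overlapping ones and lies above that of the 1-sided ones. Among flanked peaks it was 10.2% (23 of 226, interval 6.88 to 14.8%) with 1 to 4 H3K27ac peaks from 1 to 10 kb and 35.8% (19 of 53, interval 24.3 to 49.3%) with 10 or more. The other classes were not split in this way, so this difference is not shown to be particular to flanked peaks. The nearest p63 peak of the 84 was an overlapping one for 42, a peak flanked on 1 side for 18, another flanked peak for 15 and a peak 1 to 10 kb from H3K27ac for 9. Overlapping peaks were also the nearest for 277 of the 519 other p63 peaks with a neighbour within 10 kb (53.4%, interval 49.1 to 57.6%), and they made up 52.2% of all 603 p63 peaks with such a neighbour, so 42 of 84 is near the share in the whole list. Closest together were chr3:122178791-122178984 and an overlapping p63 peak 233 bases away, in a place with flanks of 1075 and 770 bases. The next were chr1:170365507-170365688 at 287 bases and chr17:46747268-46747393 at 328 bases from theirs. In all, 13 flanked peaks had another p63 peak within 1 kb, and in 13 of 13 cases that neighbour overlapped H3K27ac. By the rule a flank lies under 1000 bases away on each side, so a neighbour this close is itself near H3K27ac. The share for other p63 peaks with a neighbour within 1 kb is not given here, so the count is a description. When only the p63 peaks above the median width rank were counted, the share with a neighbour within 10 kb was 10.8%. That setting also leaves fewer p63 peaks as possible neighbours, and the cause of the lower share was not tested.

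No gap held 2 flanked p63 peaks: the 471 peaks lay in 471 different gaps. At chr13:29719188-29719427 the gap of 1305 bases was also met by a second p63 peak, chr13:29720190-29720408, which overlapped the right flank. Neighbouring gaps were occupied together at chromosome 16, where the H3K27ac peak chr16:30524936-30525439 (504 bases) was the right flank of chr16:30524671-30524878 and the left flank of chr16:30525932-30526191. This was the one H3K27ac peak that served 2 sites. There were 8 pairs of flanked peaks that lay within 10 kb of each other with no p63 peak nearer to one of them. Besides that on chromosome 16 (1053 bases apart) they included chr4:140276137-140276339 with chr4:140277943-140278150 (1603 bases) and chr15:64072159-64072429 with chr15:64074210-64074439 (1780 bases).

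Over longer distances most flanked peaks had no other flanked peak within 100 kb. Their median distance to the nearest p63 peak of any class was 52.5 kb. No like count was made for the other classes, so the grouping is not shown to be particular to flanked peaks. With flanked peaks joined where less than 100 kb lay between them, 396 were single, 31 groups held 2, 3 groups held 3 and 1 group held 4. The group of 4 spanned 77.7 kb at chr17:31971795-32049539, with gaps of 323, 938, 263 and 284 bases, and its members at both ends had a flank over 1000 bases (1162 and 1785 bases). The groups of 3 were at chr6:97166891-97265929, chr15:77629211-77707674 and chr18:80254143-80315512. The group on chromosome 15 held both the site with 2 flanks over 1500 bases and the site with the most acetylated surroundings.

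The share of p63 peaks that were flanked on both sides varied from chromosome to chromosome, with counting error in each value. It was 11.5% ± 3.03 (mean and SD over 19 autosomes), from 6.23% on chromosome 11 (17 of 273, Wilson 95% interval 3.92 to 9.75%) to 17.9% on chromosome 15 (35 of 195, interval 13.2 to 23.9%). These 2 intervals do not overlap, but they are the extremes of 20 chromosomes and the difference was not tested. Every other chromosome had an interval that includes 11.4%, the value for all chromosomes together. The spread was not separated from counting error. On chromosome 11 overlap with H3K27ac was counted for 128 of 273 p63 peaks and on chromosome 15 for 70 of 195, against 34.8% of all p63 peaks. Chromosome X had 7 flanked peaks of 51 (13.7%, interval 6.81 to 25.7%), and its interval includes the value of the autosomes together, 11.4%.

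**Figure D5:**
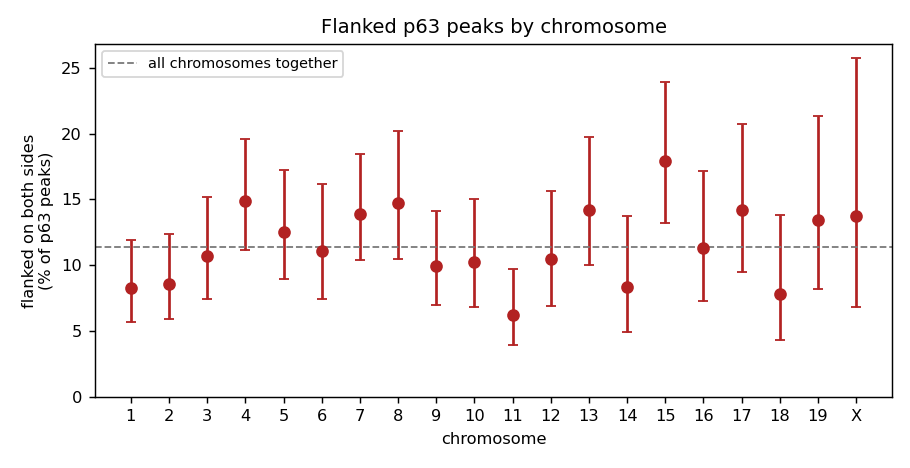
Points give the percentage of the p63 peaks of a chromosome that were flanked by H3K27ac on both sides, with Wilson 95% intervals, and the dashed line the value for all chromosomes, 11.4%. The interval of chromosome 11 lies below the line and that of chromosome 15 above it.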

How the data were processed

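The authors deposited 1 list of p63 and 1 of H3K27ac peaks, each giving a chromosome, a start and an end, each tied by the labels to 1 ChIP library and 1 input. Per the submitters' processing notes the tools included Bowtie 1.1.1 and MACS2 2.1.0 and the build was mm9; no settings, peak threshold or filters are stated. On chromosome 7, 1072 H3K27ac peaks end past the last gene of the GRCm38 table, so that table and its sequences were not used, and the planned work on genes and motifs was not run. Starts are printed counted from 1, and distances count the bases between 2 edges. No H3K27ac peaks overlapped each other. The members and the classes were chosen with earlier results of these data known. With 1 library per group no test over samples exists: shares carry Wilson or exact binomial 95% intervals, and medians the interval from binomial ranks. Named peaks were the 10 widest, those with the 5 largest sums of flank widths, the 5 shortest and 5 longest gaps, 3 on either side of the distance limit and gaps with 2 or more p63 peaks; the others were chosen after their values were seen. Alternatives changed the distance limit, the overlap, the H3K27ac and p63 peaks counted and chromosome X. The code was tested on simulated lists. Software was matplotlib 3.10.9, scipy 1.17.1, pandas 2.3.3 and numpy 2.4.6 under Python 3.11.15.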

Additional observations from a re-analysis of the deposited data

How the results depend on the processing

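Of 54 values recomputed under 11 settings, 30 stayed within the 95% interval of the value given above (the number of sites within 1.5 times) and 24 moved beyond it. With a limit of 500 bases the median gap was 472 bases and the median flank 285.5; with 2000 bases they were 703 and 242, and the nearer distance made up 23.5% of both. With overlap judged at the p63 midpoint there were 927 sites, with a median gap of 384 bases, a nearer distance of 6.60%, flanks of 318.5, p63 peaks of 198 and 1478 acetylated bases from 1 to 10 kb. With H3K27ac peaks above the smallest width the flanks were 273 bases and 1.05% of gaps held a site. With H3K27ac peaks of 300 bases or more there were 158 sites, flanks of 493 and 1454 acetylated bases, and 24.1% had a p63 neighbour. The p63 peaks above the median width rank gave 240 sites with a median width of 220, and 10.8% with a neighbour. A p63 neighbour lay within 5 kb of 12.1% and within 20 kb of 28.9% of the sites, and acetylated bases were 573 out to 5 kb and 2318 out to 20 kb. Each setting changes which peaks or bases are counted; beyond that the cause was not tested. Without chromosome X none of 7 values moved. The settings for motifs and genes were not run, as no genome of mm9 was used. No paired analysis was possible because there is 1 library in each group. Sequencing depth is not known and the lists hold no signal, so a gap is a stretch without a called H3K27ac peak and is not shown to lack acetylation.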
